A study of Mus musculus with 44 samples.

Results

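The regions described here are the open chromatin peaks that gained accessibility in the ICM (inner cell mass) of both *Pou5f1*-KO and *Sox2*-KO mouse embryos. A peak was a member when its mean rlog, a log2 measure of Tn5 insertions from ATAC-seq, was higher in KO than in Ctrl by at least 0.9 in late ICM and by at least 0.3 in early ICM, in each of the 2 lines. Of 152393 peaks of 200 bp, 1330 met the rule, so the members were selected on the ICM values themselves. The mirrored rule, with KO lower than Ctrl by the same amounts, was met by 6069 peaks, which serve as a comparison. The question put to these peaks was whether they lie at loci of the morula, the trophectoderm or the primitive endoderm.

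The 44 libraries were made from B6C3F1 embryos in 12 conditions. *Pou5f1* embryos came from *Pou5f1* flox/flox; Zp3-Cre females and *Pou5f1* +/mKO2 males, and *Sox2* embryos from *Sox2* flox/flox; Zp3-Cre females and *Sox2* +/EGFP males. Zp3-Cre acts in the growing oocyte, so every embryo, Ctrl included, lacked the maternal product. KO embryos had inherited the labelled null allele from the father, and Ctrl embryos, which are not wildtype, had an intact paternal copy only. *Pou5f1*-KO and Ctrl embryos were collected at E2.75 (morula) and at E3.25 (late morula), and each of these conditions had 3 libraries. ICMs of both lines, KO and Ctrl, were taken at an early (E3.75) and a late (E4.5) stage, with 4 libraries per condition. A library was a pool of 20 to 40 embryos. ICMs had been cultured from E2.5 in 1 μM of the MEK inhibitor PD0325901, which blocks primitive endoderm, and were separated from the trophectoderm by immunosurgery. Morulae were whole and untreated, so stage, culture and dissection cannot be told apart between morula and ICM. *Sox2*-KO morulae were not analysed here.

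The first lineage choice of the mouse embryo separates trophectoderm, the outer epithelium that implants and builds the placenta, from the ICM. In outer cells low Hippo signalling lets YAP enter the nucleus and act with TEAD4, and the genes *Cdx2*, *Gata3* and *Eomes* are then expressed. The ICM later divides into epiblast, which depends on OCT4 (encoded by *Pou5f1*) and SOX2, and primitive endoderm, in which GATA6 and GATA4 act. GATA and TEAD factors are also present before these fates part, in the morula.

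The windows below show the sequence of 8 gained peaks in GRCm38, plus strand, 5′ to 3′, credited to the RefSeq assembly. They are shown for their many GATA words (AGATAA) or TEAD words (GGAATG), or for their place near a trophectoderm gene. The GATA word occurs in 17.5% and the TEAD word in 18.9% of all peaks. Capitals mark these words and their reverse complements.
*Khdc1b* region, chr1:21448885-21449084, with 5 GATA words: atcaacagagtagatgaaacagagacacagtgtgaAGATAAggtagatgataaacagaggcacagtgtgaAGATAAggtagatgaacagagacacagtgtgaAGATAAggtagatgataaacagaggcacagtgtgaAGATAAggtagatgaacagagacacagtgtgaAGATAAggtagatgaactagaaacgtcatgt
*Tjp1* intron, chr7:65482285-65482484, with 4 TEAD words: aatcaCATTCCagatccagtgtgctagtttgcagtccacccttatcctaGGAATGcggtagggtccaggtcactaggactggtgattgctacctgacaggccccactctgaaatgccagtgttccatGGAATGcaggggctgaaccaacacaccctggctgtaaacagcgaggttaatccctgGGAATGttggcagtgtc
*Bmp8b* upstream, chr4:123093582-123093781: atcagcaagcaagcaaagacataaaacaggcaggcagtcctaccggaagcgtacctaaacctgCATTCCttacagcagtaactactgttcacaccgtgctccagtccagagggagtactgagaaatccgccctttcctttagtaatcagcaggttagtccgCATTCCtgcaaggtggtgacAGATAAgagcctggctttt
*Krt18* upstream, chr15:102025686-102025885: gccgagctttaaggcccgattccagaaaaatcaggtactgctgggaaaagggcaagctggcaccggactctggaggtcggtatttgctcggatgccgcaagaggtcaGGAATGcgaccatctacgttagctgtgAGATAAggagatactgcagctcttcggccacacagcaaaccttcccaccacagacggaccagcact
*Gata3* downstream, chr2:9825761-9825960: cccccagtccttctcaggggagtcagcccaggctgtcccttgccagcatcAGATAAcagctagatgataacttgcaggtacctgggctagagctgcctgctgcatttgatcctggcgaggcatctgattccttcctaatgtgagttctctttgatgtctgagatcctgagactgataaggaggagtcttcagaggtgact
*Eomes* upstream, chr9:118411550-118411749: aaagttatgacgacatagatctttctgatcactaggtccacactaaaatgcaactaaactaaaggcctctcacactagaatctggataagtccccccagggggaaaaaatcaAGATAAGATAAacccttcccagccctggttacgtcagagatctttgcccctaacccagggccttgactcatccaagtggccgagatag
*Tead4* intron, chr6:128225181-128225380: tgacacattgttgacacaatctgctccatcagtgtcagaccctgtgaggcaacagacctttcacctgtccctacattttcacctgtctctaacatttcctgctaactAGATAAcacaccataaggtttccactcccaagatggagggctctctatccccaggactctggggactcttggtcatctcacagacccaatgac
*Klf6* upstream, chr13:5769654-5769853: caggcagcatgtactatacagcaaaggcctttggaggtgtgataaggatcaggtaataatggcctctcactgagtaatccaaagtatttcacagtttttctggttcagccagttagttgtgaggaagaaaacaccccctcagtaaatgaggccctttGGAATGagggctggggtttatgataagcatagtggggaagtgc
The *Khdc1b* window held 5 GATA words, and 52.5% of its bases were soft-masked as repeat. The *Tjp1* window held 4 TEAD words and no masked base. In the *Bmp8b* window lay 1 GATA and 2 TEAD words, and in the *Krt18* window 1 of each. The 2 GATA words of the *Eomes* window overlap by 1 base.

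At the gained peaks, Ctrl ICM had lower accessibility than Ctrl late morula, and KO late ICM of both lines had higher accessibility. The mean rlog over the 1330 peaks was 3.18 ± 0.12 (SD, n = 3) in Ctrl morula and 3.56, 3.62 and 3.53 in Ctrl late morula. In *Pou5f1* Ctrl it was 2.78, 2.55, 2.94 and 2.72 in early ICM and 2.62, 2.57, 2.59 and 2.68 in late ICM. In *Pou5f1*-KO it was 3.63 ± 0.205 (SD, n = 4) in early ICM and 3.82, 3.98, 4.17 and 4.10 in late ICM. In early ICM 2 of the *Pou5f1*-KO libraries (3.48 and 3.44) were below every Ctrl late morula library. The KO late ICM libraries therefore lay above every Ctrl late morula library, and the Ctrl late ICM libraries below every Ctrl morula library. The *Sox2* line gave like levels in late ICM, with 2.66 ± 0.10 in Ctrl (SD, n = 4) and 3.89, 3.88, 4.03 and 3.83 in KO. Its early ICM libraries had 2.92, 2.91, 3.10 and 2.66 in Ctrl, all below those of KO (3.56 ± 0.16, SD, n = 4), of which 2 (3.52 and 3.38) were below every Ctrl late morula library. The mean over all peaks stayed between 2.47 and 2.67 in every library. These ICM values chose the peaks and are given without a test.

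**Figure D1:**
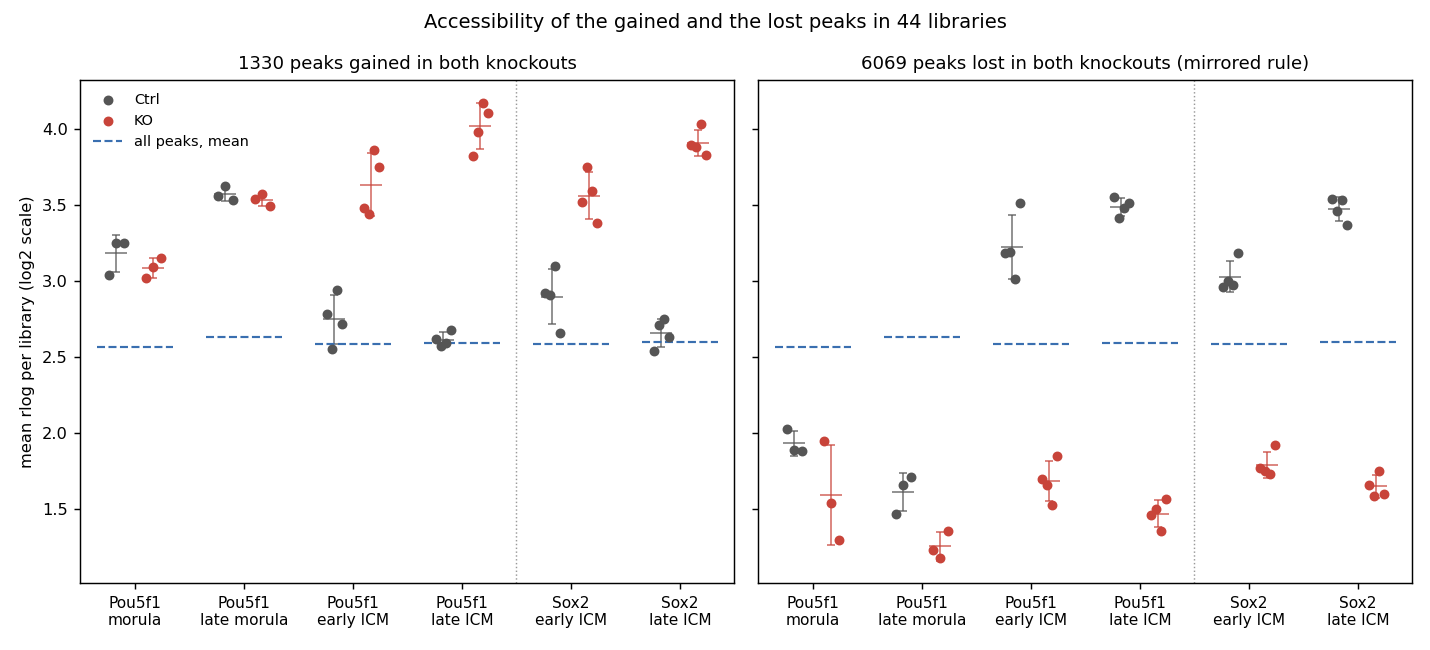
Mean rlog (log2 scale) over the 1330 gained peaks (left) and the 6069 peaks lost under the mirrored rule (right) in each of the 44 libraries, by line and stage, with Ctrl in grey and KO in red. Points are libraries, bars give the mean and SD of each condition, and dashed lines the mean over all peaks. Ctrl and KO morulae sit together at the gained peaks, while in late ICM Ctrl has means of 2.61 and 2.66 and KO of 4.02 and 3.91.

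Ranked among all peaks of a condition, the median gained peak stood at percentile 68.0 in Ctrl morula, 76.1 in Ctrl late morula and 51.5 in *Pou5f1* Ctrl late ICM. It stood at percentile 82.1 in *Pou5f1*-KO and 79.2 in *Sox2*-KO late ICM. In Ctrl late morula 1002 of the 1330 peaks (75.3%) were above the median of all peaks, and in *Pou5f1* Ctrl late ICM 698 (52.5%). In *Pou5f1*-KO late ICM 1227 (92.3%) were. The KO late ICM level was within 1 log2 unit of the Ctrl late morula level at 939 of the 1330 peaks (70.6%, and 71.7% of all peaks) in the *Pou5f1* line. It was higher by at least 1 at 336 (25.3%, against 12.2% of all peaks) and lower by at least 1 at 55 (4.14%, against 16.1%). In the *Sox2* line these counts were 947 (71.2%, against 69.9%), 295 (22.2%, against 13.2%) and 88 (6.62%, against 16.9%). The rule chose the members by a high KO minus Ctrl difference in late ICM. This choice raises their KO ranks and their KO levels beside those of all peaks, so these ranks and shares are a description. In bulk samples, fewer cells with an open site and less opening per cell cannot be told apart.

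The size of the ICM gain varied. In late ICM the difference from Ctrl had a median of 1.34 and a maximum of 3.22 in *Pou5f1*-KO, and a median of 1.19 and a maximum of 2.50 in *Sox2*-KO. In early ICM the medians were 0.80 and 0.60. With limma, 1058 of the 1330 members passed an adjusted p of 0.05 as higher in *Pou5f1*-KO late ICM, where 8.19% of all peaks did, and 721 in *Sox2*-KO late ICM, where 2.71% did. In early ICM 354 members (26.6%) were called higher in *Pou5f1*-KO, as were 4196 of all 152393 peaks, and 28 (2.11%, against 0.238% of all peaks) in *Sox2*-KO. Every KO library lay above every Ctrl library at 948 members in *Pou5f1* late ICM (8.81% of all peaks) and at 847 in *Sox2* late ICM (5.63% of all peaks). At 636 members (47.8%, against 1.61% of all peaks) the groups were separate in both lines. The rule used these contrasts, so these counts describe the selection. At the thresholds, the member with the smallest *Sox2*-KO late ICM difference had 0.9001 and the nearest peak outside had 0.8997. For *Pou5f1*-KO late ICM the values were 0.9005 and 0.8999.

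A minority of the peaks that met the rule in 1 line met it in the other, though most were above 0 there in late ICM. The *Pou5f1* side of the rule was met by 12830 peaks and the *Sox2* side by 5088. The 1330 shared peaks were 10.4% of the former and 26.1% of the latter, and the *Sox2* side was met by 3.34% and the *Pou5f1* side by 8.42% of all peaks. Over the 12830 peaks of the *Pou5f1* side, the median *Sox2*-KO difference in late ICM was 0.46, and 78.6% were above 0, against 0.01 and 51.0% of all peaks. Over the 5088 peaks of the *Sox2* side, the median *Pou5f1*-KO late ICM difference was 0.65, and 80.4% were above 0, against −0.04 and 47.9% of all peaks. The lines have separate Ctrl libraries.

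The peaks with the largest mean gain over the 4 ICM comparisons lay at *Zbtb16*, *Ikzf2*, *Plekha1* and *Cand1*. The first is in an intron of *Zbtb16* (which encodes the zinc-finger factor PLZF), at chromosome 9, 48795197 to 48795396. In late ICM the peak had 1.80, 1.77, 1.42 and 3.48 in *Pou5f1* Ctrl and 4.47, 4.82, 4.77 and 5.39 in *Pou5f1*-KO. In the *Sox2* line it had 2.74, 3.35, 2.89 and 2.79 in Ctrl and 5.58, 5.17, 5.30 and 5.73 in KO. No KO library overlapped a Ctrl library in either line, and 1 of the *Pou5f1* Ctrl libraries, at 3.48, stood above its group. In Ctrl late morula the peak had 3.56 ± 0.52 (SD, n = 3), between the Ctrl and KO ICM levels.

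The *Plekha1* peak lies in an intron 41610 bp upstream of the nearest start site, that of a gene for a phosphoinositide-binding adaptor. It had 4.10 ± 0.38 (SD, n = 3) in Ctrl morula, 2.30, 2.37, 2.00 and 0.87 in *Pou5f1* Ctrl late ICM and 4.44, 4.13, 4.4 and 4.65 in KO. The *Sox2* late ICM libraries had 2.01, 2.29, 2.38 and 2.10 in Ctrl and 3.31, 3.06, 3.96 and 3.24 in KO. At this peak the *Pou5f1*-KO late ICM (mean 4.40) stood near the level of the Ctrl morula, and the *Sox2*-KO late ICM (mean 3.39) below it. The intergenic peak 158970 bp from *Cand1* (a regulator of cullin ubiquitin ligases) was instead low in Ctrl morula (1.93 ± 0.92, SD, n = 3), in Ctrl late morula (2.14 ± 0.22, SD, n = 3) and in Ctrl late ICM, at 2.53, 1.89, 2.31 and 1.25. Its *Pou5f1*-KO late ICM libraries had 4.72, 4.44, 4.89 and 4.89, above each library of these 3 Ctrl conditions. The *Sox2* late ICM libraries at *Cand1* had 1.98, 2.83, 2.91 and 2.64 in Ctrl and 4.32, 4.52, 5.09 and 4.14 in KO.

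The morula libraries played no part in the choice of the peaks, so comparisons among them are independent of the rule. Few gained peaks were called between *Pou5f1*-KO and Ctrl before the ICM. In morula the median KO minus Ctrl difference over the 1330 peaks was −0.07, against −0.02 for all peaks, and in late morula −0.03, against −0.01. With limma no member was called higher in KO morula (0.0518% of all peaks were) and 1 was called lower (0.185% of all peaks). In late morula none was called higher (0.108% of all peaks) or lower (0.539% of all peaks). At an unadjusted p under 0.05, 27 members were higher and 74 lower in morula (3.61% and 4.63% of all peaks), and 25 were higher and 45 lower in late morula (3.79% and 4.92% of all peaks). At the 6069 peaks lost in the ICM of both knockouts the medians were −0.27 and −0.30, with 77 called lower in KO morula and 201 in KO late morula. A fit with the replicate number as a block called 0 members higher in KO morula (0.161% of all peaks). It called 7 lower (0.526%, against 0.506% of all peaks). In late morula, where same-numbered KO and Ctrl libraries deviated together, this fit called 2 members higher (0.15%, against 0.23% of all peaks) and 1 lower (0.0752%, against 0.89%). Those called in late morula are peaks near *Ero1lb* (1.68, adjusted p = 0.028 from limma) and *Tenm3* (1.79, adjusted p = 0.031 from limma) and near *Trp53bp2* (−1.48, adjusted p = 0.026 from limma), named after their values were seen.

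The 1 member called lower in *Pou5f1*-KO morula lies 4873 bp upstream of *Tbc1d15*, a GTPase-activating protein for Rab7, and has 2 TEAD words. It had 3.71, 4.59 and 4.55 in Ctrl morula and 2.43, 1.59 and 2.16 in KO morula, and the groups did not overlap. The difference was −2.23 (adjusted p = 0.020 from limma, standard error 0.50). In late morula it had 3.88, 5.33 and 4.09 in Ctrl and 4.10, 4.48 and 3.22 in KO, a difference of −0.50 (adjusted p = 0.90 from limma). Within KO it rose by 1.88 from morula to late morula (adjusted p = 0.018 from limma). Its call in morula was lost without Ctrl morula replicate 2 (adjusted p = 0.11) or 3 (0.093), or KO morula replicate 2 (0.17) or 3 (0.12), all from limma, and when the 6 morula libraries were fitted alone (0.073). It was kept without replicate 1 of Ctrl morula (limma adjusted p = 0.031) or of KO morula (0.011). It was also kept with a replicate block (0.0013) and after quantile normalization (0.0082). Without KO morula replicate 1, 5 members (0.376%, against 0.631% of all peaks) were called lower, with peaks near *Tspan8*, *Sertad2*, *Tubg2* and *P2rx7* beside that of *Tbc1d15*, and without Ctrl morula replicate 2 a peak near *Frmd4b* was the 1 called. These were named after their values were seen.

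Between morula and late morula, before an ICM exists, a larger share of the gained peaks than of all peaks rose, in both genotypes. In Ctrl embryos 141 of the 1330 members (10.6%) were called higher in late morula, where 3.65% of all peaks were, and 14 (1.05%) were called lower, where 2.79% were (2.11% and 4.49% after quantile normalization). In *Pou5f1*-KO embryos 111 (8.35%) were called higher, against 1.86% of all peaks, and 3 lower, against 1.51%. The median stage difference was 0.37 in Ctrl and 0.40 in KO, against 0.08 and 0.07 for all peaks. It was positive at 919 (69.1%) and 965 (72.6%) of the members, and at 54.8% and 54.5% of all peaks. The members were stronger peaks, with a median rlog over all conditions of 3.26 against 2.44 for all peaks. The rlog shrinks weak peaks, and the values of all peaks given here are not matched for strength. At the peaks lost in both knockouts the medians were −0.29 in each genotype. Of the members called higher, 61 were called in both genotypes, 80 in Ctrl alone and 50 in KO alone (31.9%, 41.9% and 26.2% of the 191 called in either, against 18.4%, 60.1% and 21.5% of 7084 over all peaks). A test of the difference between the genotypes (the interaction in limma) called no member and no other peak, and 46 members (3.46%) had an unadjusted p under 0.05, as had 3.85% of all peaks. The 3 members called lower in KO lie near *Agps*, *Col9a2* and *Dhcr7*, of which *Agps* and *Dhcr7* were named after their values were seen.

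The count of rising members depended on single libraries, though the share of members stayed above that of all peaks. Without Ctrl morula replicate 1 it was 72 (5.41%, against 2.08% of all peaks), and without Ctrl late morula replicate 1, 2 or 3 it was 78, 86 or 82 (5.86%, 6.47% and 6.17%, against 1.61%, 2.06% and 2.18%). In KO it was 64 without morula replicate 1 (4.81%, against 0.959%) and 30 without late morula replicate 1 (2.26%, against 0.373%). The falling members in Ctrl numbered 5 to 9 with any of the 6 libraries left out (0.376% to 0.677%, against 1.24% to 2.06% of all peaks).

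**Figure D2:**
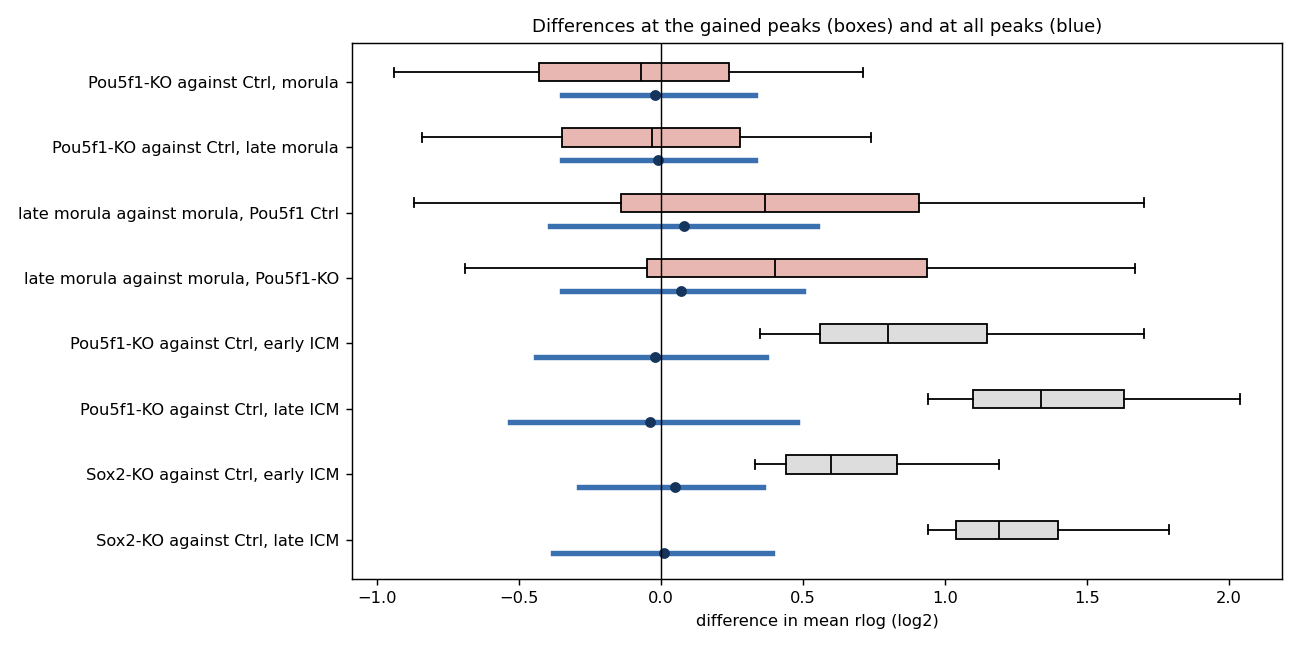
Differences in mean rlog (log2) for 8 comparisons. Boxes give the median and quartiles of the 1330 gained peaks with whiskers at the 5th and 95th percentiles, in red for comparisons of morula libraries that the rule did not use and in grey for the ICM comparisons it used. Blue bars and points give the quartiles and median of all 152393 peaks. The members centre near 0 for KO against Ctrl in morula and late morula (medians −0.07 and −0.03) and above all peaks between the morula stages (0.37 and 0.40).

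Among the members that rose most to the late morula were peaks at *Slc9a2*, *Klf6* and *Kif23*. In an intron of *Slc9a2*, a sodium-proton exchanger of epithelia, the peak had 2.21, 1.54 and 2.35 in Ctrl morula and 5.72, 5.34 and 5.20 in Ctrl late morula. Every late morula library was above every morula library, and the rise was 3.39 (standard error 0.48, adjusted p = 1e-06 from limma). In KO embryos it went from 2.96, 2.18 and 0.99 to 5.23, 4.06 and 4.45 (2.54, adjusted p = 0.00044 from limma). In late ICM the *Slc9a2* peak had 3.64, 4.03, 3.61 and 3.57 in *Pou5f1* Ctrl and 4.63, 5.13, 4.94 and 4.84 in KO, and 3.17, 4.12, 2.89 and 3.77 in *Sox2* Ctrl and 4.95, 4.77, 5.41 and 5.32 in KO. So it opened in the late morula and was lower in the Ctrl late ICM. It was higher in late ICM of both knockouts, as the rule required. In early ICM Ctrl and KO overlapped in both lines, with 3.29, 2.55, 3.41 and 1.44 in *Pou5f1* Ctrl and 2.64, 1.68, 3.92 and 3.82 in KO.

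The peak 91729 bp upstream of *Klf6*, a zinc-finger factor on the trophectoderm list, rose from 2.96, 2.69 and 2.77 in Ctrl morula to 5.62, 5.38 and 5.42 in late morula (2.67, standard error 0.33, adjusted p = 2.5e-08 from limma). It rose in KO by 2.40 (adjusted p = 1e-06 from limma). It was well accessible in the Ctrl ICM, with 5.12, 4.62, 5.13 and 4.77 in *Pou5f1* Ctrl late ICM, and KO stood above that at 6.4, 6.54, 6.63 and 6.30. The *Sox2* line had 5.17, 5.66, 5.40 and 5.43 in Ctrl and 6.66, 6.60, 6.76 and 6.02 in KO. At *Kif23*, a kinesin of cytokinesis, the rise was 2.64 (adjusted p = 9.1e-05 from limma) in Ctrl and 2.39 (adjusted p = 0.00077) in KO.

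The largest falls were at *Zfp426*, *Hnrnpa3*, *Asap3* and *Col9a2*. The *Zfp426* peak, in a coding exon 7162 bp upstream of that gene's start, had 3.21, 3.15 and 3.03 in Ctrl morula and 0.75, 0.73 and 1.33 in late morula (−2.19, adjusted p = 0.0033 from limma). In KO embryos its difference of −0.75 was not called (adjusted p = 0.50 from limma). The peak 34980 bp upstream of *Hnrnpa3*, an RNA-binding protein gene, had 4.8, 4.34 and 3.72 in Ctrl morula and 2.50, 1.93 and 2.07 in late morula (−2.12, adjusted p = 0.0014 from limma), and −0.88 in KO (adjusted p = 0.32). By their means, both peaks were higher in the Ctrl morula and in the ICM, Ctrl as well as KO, than in the Ctrl late morula. The *Zfp426* peak had means of 2.99 and 3.40 in early ICM and 2.47 and 2.59 in late ICM of *Pou5f1* and *Sox2* Ctrl, and 3.62 and 3.72 in KO late ICM. The *Hnrnpa3* peak had 2.89 to 2.96 in the 4 Ctrl ICM conditions and 4.15 and 4.05 in KO late ICM. The falls at *Asap3* (−1.92, adjusted p = 0.0071 from limma) and *Col9a2* (−1.82, adjusted p = 0.023 from limma, and −1.83 in KO, adjusted p = 0.035) lost their calls in Ctrl without 1 and 4 of the 6 libraries in turn. For *Asap3* it was Ctrl late morula replicate 3 (limma adjusted p = 0.065). For *Col9a2* these were replicates 1 and 2 of Ctrl morula (limma adjusted p = 0.075 and 0.081) and of Ctrl late morula (0.089 and 0.14). In KO the *Col9a2* call was also lost without 4 of the 6 libraries, which were replicates 1 and 3 of KO morula (limma adjusted p = 0.15 and 0.08) and of KO late morula (0.21 and 0.18).

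Set against *Pou5f1* Ctrl late ICM, 415 members (31.2%) were at least 1 log2 unit higher in Ctrl morula, as were 20.0% of all peaks, 832 (62.6%) were within 1 unit, and 83 (6.24%) were at least 1 lower, as were 22.2% of all peaks. The Ctrl late ICM libraries were used by the rule, and the Ctrl morula libraries set these groups, so their counts and levels are a description. The 415 peaks had 4.20 ± 0.18 in Ctrl morula and 4.05 ± 0.06 in Ctrl late morula (SD, n = 3), and 3.94 ± 0.13 in *Pou5f1*-KO and 3.92 ± 0.08 in *Sox2*-KO late ICM (SD, n = 4). Since both choices used the Ctrl late ICM values, the KO and morula levels of the 415 were bound to lie above them, and nothing is read from their likeness. The 832 peaks rose from 2.80 ± 0.11 in Ctrl morula to 3.38 ± 0.03 in late morula (SD, n = 3) and stood at 4.0 ± 0.16 in *Pou5f1*-KO late ICM (SD, n = 4). The 83 peaks went from 1.96 ± 0.03 to 3.12 ± 0.07 (SD, n = 3) and had 3.29 ± 0.14 in Ctrl and 4.53 ± 0.28 in *Pou5f1*-KO late ICM (SD, n = 4). Of the 141 members called higher in Ctrl late morula, 4 were among the 415 (0.964%), 104 among the 832 (12.5%) and 33 among the 83 (39.8%). Of all peaks in the same ranges 0.187%, 3.74% and 6.54% were called. The Ctrl morula values that set the groups are also the base of this difference, so groups low in morula tend to rise. Repeats and motif words differed between the groups. Windows at least 50% soft-masked made up 22.2%, 11.8% and 2.41% of the 3 groups, GATA words were in 46.0%, 44.4% and 36.1%, and TEAD words in 33.5%, 39.9% and 50.6%.

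The gained peaks were distal. Of the 1330, 26 (1.95%) lay within 100 bp of a transcription start site, against 10.6% of all peaks and 2.46% of the lost peaks. Their centres were intergenic in 49.8% and intronic in 46.9%, and the median distance to a coding gene's start was 16.3 kb, against 11.7 kb for all peaks and 25.8 kb for the lost peaks. Median GC content was 47.0%, against 50.0% and 46.5%. At least 50% soft-masked were 14.4% of the gained, 23.2% of all and 33.8% of the lost peaks. They lay on 20 chromosomes, with 2.41% on X against 2.90% of all peaks.

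Of the 13 motifs searched, GATA and TEAD had the largest differences in share between the gained peaks and all peaks. The GATA word was in 590 of the 1330 windows (44.4%), against 17.5% of all peaks and 15.4% of the lost peaks. The TEAD word was in 513 (38.6%), against 18.9% and 18.4%. Both were in 205 (15.4%, against 3.77% of all peaks), at least 1 of them in 898 (67.5%, against 32.6%), and 2 or more GATA words were in 167 (12.6%, against 2.79%). Base composition and position moved with these shares. Among windows with 44% to 50.5% GC, more than 1 kb from a start site and less than 50% soft-masked, the GATA word was in 45.7% of 556 gained peaks and 24.2% of 38146 peaks, and the TEAD word in 39.7% and 23.1%. The shares were also higher than at peaks that met only 1 side of the rule. The GATA word was in 37.5% of the 11500 peaks of the *Pou5f1* side alone and in 30.5% of the 3758 of the *Sox2* side alone, and the TEAD word in 29.8% and 28.1%. These shares are descriptions and a word is not a bound site.

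The OCT, SOX and OCT-SOX words were less frequent among the gained peaks than among all or lost peaks. The OCT word (ATGCNAAT) was in 1.58% of the gained peaks, against 4.11% of all and 14.1% of the lost peaks. The composite OCT-SOX word (TTGTNATGC), whose ends overlap the other words, was in 1 gained peak (0.0752%), against 0.817% and 8.44%. The SOX word (CATTGT) was in 9.1%, against 10.9% and 20.0%. Of the remaining words, CDX (TTTATNG) was in 14.0%, against 9.23% of all and 7.12% of the lost peaks. In the same range of GC, distance and masking as above the CDX shares were 14.4% and 11.8%, and peaks of the *Sox2* side alone held the word in 21.6%. KLF (GGGTGTG or GGGCGTG) was in 17.3% (21.2%, and 12.2% of the lost peaks), ESRRB or NR5A2 (CAAGGNCA) in 16.6% (18%, and 18% of the lost peaks) and AP-1 (TGANTCA) in 7.59% (7.75%). T-box (GGTGTGA) was in 6.17% (5.78%), TFAP2 (GCCTNNGGC) in 4.59% (6.97%), FOXA (TGTTTAC), a word of endoderm factors, in 4.36% (3.26%, and 5.8% of the lost peaks), and CTCF (CNAGNGGGC) in 1.80% (3.83%). The CDX share was larger among members that rose to the late morula. The word was in 26.2% of the 141 members called higher in Ctrl late morula, in 12.7% of the 1175 called in neither direction, and in 23.9% of all 5560 peaks called higher there. The GATA share was 43.3% of the 141 and 44.3% of the 1175, and the TEAD share 39.0% and 38.5%.

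**Figure D3:**
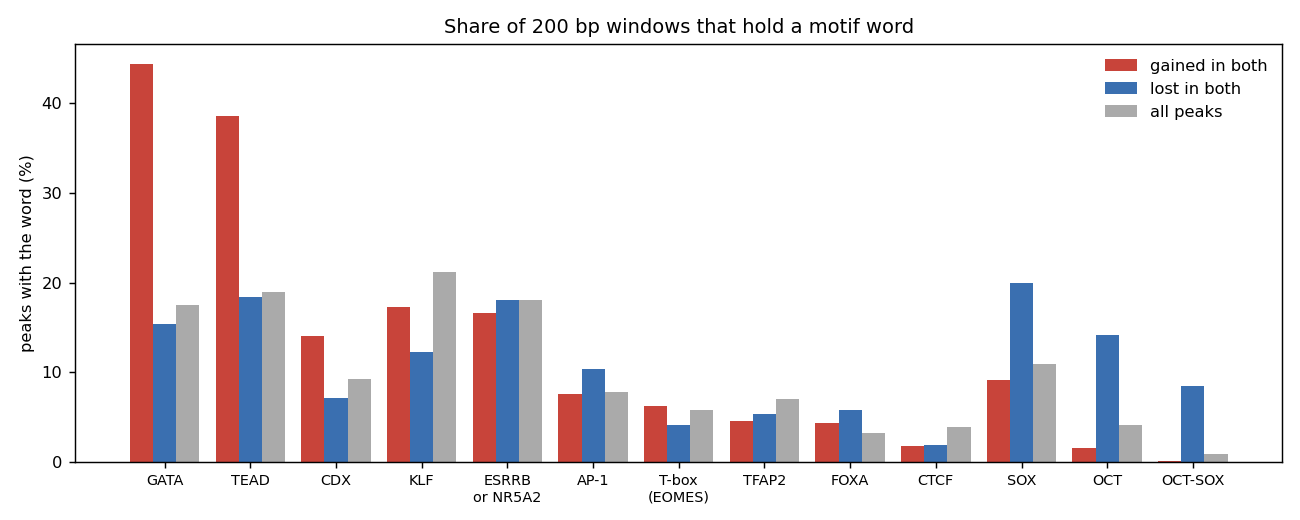
Percent of 200 bp windows that hold at least 1 copy of a motif word on either strand, for the 1330 gained peaks (red), the 6069 lost peaks (blue) and all 152393 peaks (grey). GATA (44.4%) and TEAD (38.6%) stand out among the gained peaks, and SOX, OCT and OCT-SOX among the lost peaks.

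The gained peaks were then placed by lists of lineage genes. Near trophectoderm genes (36 genes, within 100 kb of a start site) lay 29 of the 1330 members (2.18%), against 0.826% of all and 0.445% of the lost peaks. For primitive endoderm genes (30) the number was 11 (0.827%, against 0.560% and 0.264%), and for epiblast genes (30) it was 2 (0.15%, against 0.698% and 0.989%). The epiblast share rested on the thresholds of the rule, since with differences of 0.7 and 0.2 it was 0.693%, at the level of all peaks. Genes of morula polarity and junctions (30) had 17 (1.28%, against 0.880%), which include the pair shared with *Krt8* and *Krt18*, cleavage stage genes 2 (0.15%, against 0.217%), genes of later trophoblast and placenta 6 (0.451%, against 0.350%) and germ layer genes 3 (0.226%, against 0.293%). Near no listed gene lay 1263 members (95%, against 96.3% of all peaks), so the lists placed few of them. For the trophectoderm list the shares were 0.827% against 0.296% within 20 kb and 1.43% against 0.512% within 50 kb. The primitive endoderm share was 0.301% against 0.204% within 20 kb. Distance does not tell which gene a peak serves.

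**Figure D4:**
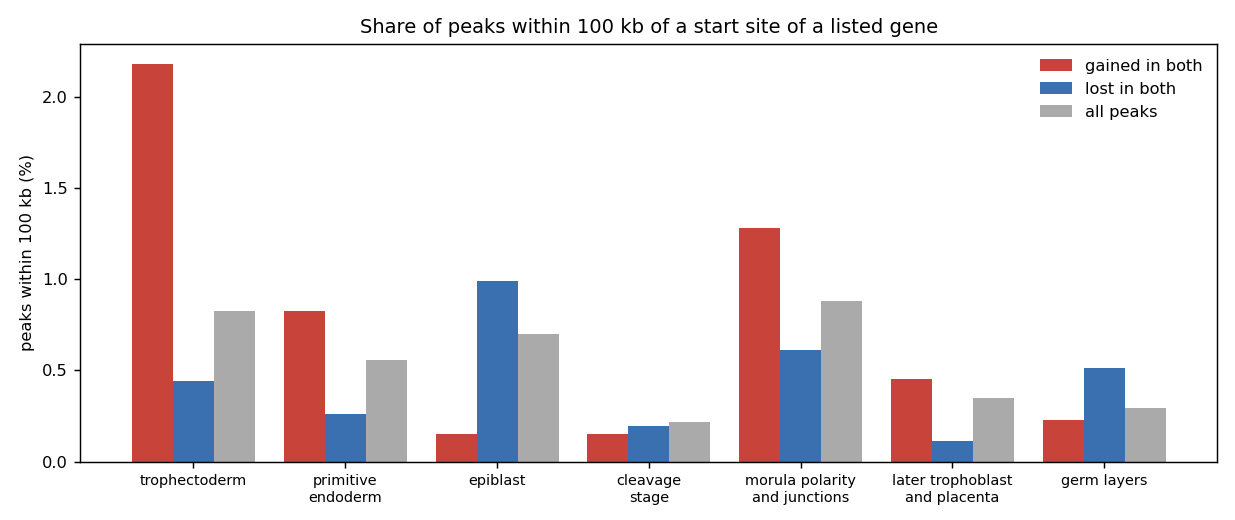
Percent of the gained peaks (red, 1330), the lost peaks (blue, 6069) and all peaks (grey, 152393) within 100 kb of a start site of a gene on each of 7 lists. The gained peaks stand at 2.18% for trophectoderm genes, against 0.826% of all peaks, and at 0.15% for epiblast genes, against 0.698% (0.693% under looser thresholds).

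All peaks around the listed genes, members included, moved unevenly in late ICM. Of 1259 peaks near trophectoderm genes 155 (12.3%) were called higher and 75 (5.96%) lower in *Pou5f1*-KO, where 8.19% and 10.1% of all peaks were. In *Sox2*-KO 74 (5.88%) were higher and 36 (2.86%) lower, where 2.71% and 4.88% of all peaks were. Of 854 peaks near primitive endoderm genes 99 (11.6%) were higher and 83 (9.72%) lower in *Pou5f1*-KO, and 44 (5.15%) and 19 (2.22%) in *Sox2*-KO. Near genes of morula polarity and junctions, 127 of 1341 peaks (9.47%) were higher and 110 (8.2%) lower in *Pou5f1*-KO, and 66 (4.92%) and 43 (3.21%) in *Sox2*-KO. Near cleavage stage genes, 34 of 330 (10.3%) were higher and 27 (8.18%) lower in *Pou5f1*-KO, and 7 (2.12%) and 14 (4.24%) in *Sox2*-KO. For genes of later trophoblast and placenta the *Pou5f1*-KO shares were 9.38% and 8.44% and the *Sox2*-KO shares 2.44% and 2.25% of 533 peaks, and for germ layer genes 6.95% and 14.8%, and 1.79% and 8.3%, of 446 peaks. Near epiblast genes, 53 of 1063 peaks (4.99%) were higher and 187 (17.6%) lower in *Pou5f1*-KO, and 21 (1.98%) and 77 (7.24%) in *Sox2*-KO. All these calls are limma's at an adjusted p under 0.05.

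The 29 members near trophectoderm genes fell to 16 of the 36 genes. *Amotl2*, a Hippo pathway scaffold, had 4, and *Gata3*, *Id2* (an inhibitor of bHLH factors), *Tspan8* (a tetraspanin) and *Dppa1* had 3 each. *Krt8* and *Krt18*, the keratin pair of the trophectoderm, shared 2, and *Fgfr2*, a receptor for FGF4, and *Bmp8b*, a BMP ligand, had 2 each. *Cdx2*, *Eomes*, *Tead4*, *Klf5*, *Klf6*, *Krt7* and *Plac1* had 1 each. No member was within 100 kb of *Elf5*, *Tfap2c*, *Hand1*, *Gata2* or *Krt19*. The median of the 29 was 4.25 in Ctrl late morula, 3.13 in Ctrl and 4.63 in KO late ICM of the *Pou5f1* line, and 3.12 and 4.54 in the *Sox2* line. From morula to late morula in Ctrl their median difference was 0.67, against 0.23 for all 1259 peaks near these genes, with 2 (6.9%) called higher, near the 6.59% of these 1259 peaks, and 0 lower by limma. These are the *Klf6* peak described above (2.67) and a peak 17778 bp from *Id2* (1.96, adjusted p = 0.00031 from limma), the latter named after its value was seen, as were the next. In KO embryos 5 (17.2%, against 3.81% of these 1259 peaks) were called higher, near *Klf6*, *Id2* (1.46), *Tspan8* (2.28), *Gata3* (1.52) and *Ppie* (1.53, near *Bmp8b*).

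At *Krt18*, 2395 bp upstream of the start, the peak had 4.04, 4.41 and 4.54 in Ctrl morula and 3.39 ± 0.12 in KO morula (SD, n = 3), a difference of −0.94 that was not called (adjusted p = 0.43 from limma) although the groups did not overlap. In late ICM it had 3.18, 3.58, 3.80 and 4.02 in *Pou5f1* Ctrl and 4.92, 5.10, 4.53 and 5.11 in KO. The *Sox2* line had 3.49, 3.43, 4.14 and 3.60 in Ctrl and 4.68, 5.24, 5.34 and 4.94 in KO, and no KO library overlapped its Ctrl in late ICM. The nearest *Gata3* member, 47812 bp downstream of the start, had 2.64 ± 0.62 in Ctrl late morula (SD, n = 3), the mean of all peaks there. It had 1.55, 2.92, 2.42 and 3.58 in *Pou5f1* Ctrl late ICM and 3.89, 4.06, 4.62 and 4.62 in KO, with 3.02, 0.90, 3.17 and 1.15 and then 3.80, 4.20, 3.26 and 3.70 in the *Sox2* line. The *Sox2* Ctrl libraries of this *Gata3* peak spread widely. The other *Gata3* members within 100 kb, 66995 and 67606 bp downstream, had more in the morulae, with means of 4.31 and 3.73 in Ctrl morula and 5.0 and 4.9 in Ctrl late morula, where the *Krt18* peak had 4.46. In *Pou5f1* late ICM their means were 5.28 and 3.32 in Ctrl and 6.19 and 4.93 in KO. In morula the member at 66995 bp differed by −1.24 in KO from Ctrl. That was not called (adjusted p = 0.22 from limma), but was with a replicate block (limma adjusted p = 0.014).

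The *Bmp8b* peak, 11484 bp upstream, was open in the Ctrl morula (3.88, 4.41 and 5.26) and late morula (4.82, 5.00 and 5.43). In late ICM it had 4.76, 3.90, 2.34 and 2.71 in *Pou5f1* Ctrl and 5.58, 4.62, 5.01 and 5.15 in KO, which overlap by 1 library, and 4.21, 3.64, 3.19 and 2.38 in *Sox2* Ctrl and 5.13, 4.05, 5.05 and 4.99 in KO, which also overlap. In an intron of *Fgfr2*, 1909 bp from the start, a peak had 4.46, 5.18 and 5.43 in Ctrl morula and 5.87, 6.05 and 5.89 in late morula (0.92, adjusted p = 0.052 from limma). Its late ICM libraries had 3.87, 4.49, 4.55 and 4.87 in *Pou5f1* Ctrl and 5.70, 5.46, 5.72 and 5.11 in KO. In the *Sox2* line they had 5.28, 4.24, 4.93 and 5.23 in Ctrl and 5.82, 5.63, 5.86 and 6.01 in KO. The KO late ICM means were 5.09 and 4.81 at *Bmp8b*, where Ctrl late morula had 5.09, and 5.5 and 5.83 at *Fgfr2*, where it had 5.94.

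The members by *Cdx2* (66776 bp from its start and nearer to *Pdx1*), *Eomes* (66563 bp upstream) and *Tead4* (50297 bp downstream of its start) differed in late ICM by 1.67, 1.38 and 1.33 in *Pou5f1*-KO and by 1.41, 0.97 and 1.44 in *Sox2*-KO. For *Id2* (5721 bp upstream), *Klf5* (6293 bp upstream) and *Amotl2* (25730 bp downstream of its start) the *Pou5f1*-KO differences were 1.42, 1.35 and 1.59, and the *Sox2*-KO differences 1.03, 0.91 and 1.27. The *Tspan8* member lies 12 bp from a start site and differed by 1.64 and 1.27. None of these was called between Ctrl and KO in morula or late morula.

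**Figure D5:**
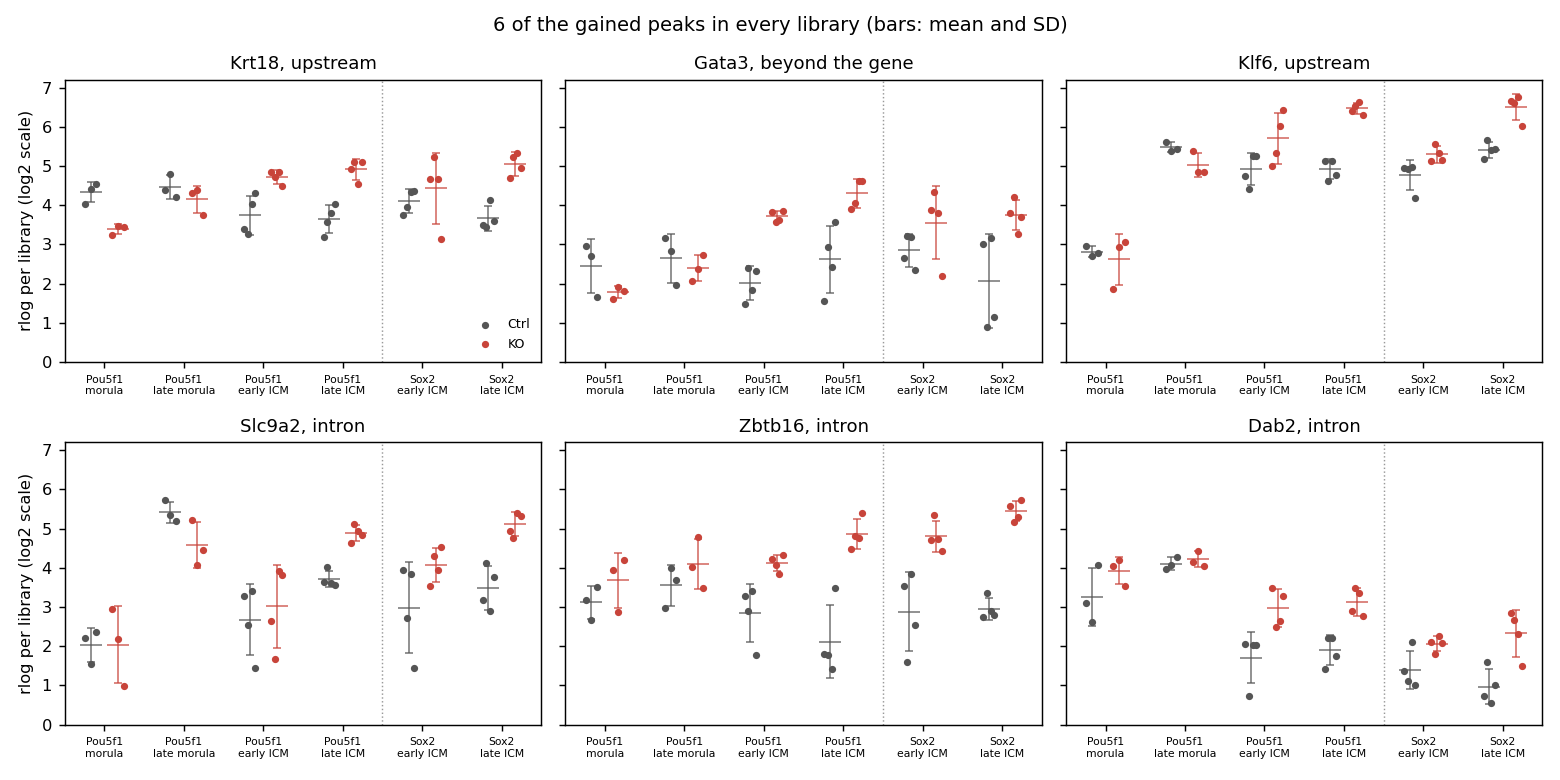
Rlog per library (log2 scale) of 6 gained peaks, near *Krt18*, *Gata3*, *Klf6*, *Slc9a2*, *Zbtb16* and *Dab2*, by line and stage, with Ctrl in grey and KO in red; bars give the mean and SD. The *Slc9a2* and *Klf6* peaks step up from morula to late morula in both genotypes (3.39 and 2.67 in Ctrl), and the *Dab2* peak is higher in late morula (4.11 in Ctrl) than in late ICM of either line.

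On the primitive endoderm list *Lrp2*, which encodes the endocytic receptor megalin, had 5 of the 11 members within 100 kb. *Dab2*, the adaptor that works with megalin, *Col4a2*, *Fgfr1*, *Hnf4a*, *Nid1* and *Srgn* had 1 each. No member lay within 100 kb of *Gata4*, *Gata6*, *Sox17*, *Pdgfra* or *Foxa2*. The *Dab2* member, 436 bp from a start site in an intron, had 3.10, 2.61 and 4.06 in Ctrl morula and 3.97, 4.08 and 4.28 in late morula. It had 1.43, 2.22, 2.20 and 1.75 in *Pou5f1* Ctrl late ICM and 2.89, 3.48, 3.37 and 2.78 in KO. In *Sox2* late ICM it had 0.73, 1.59, 0.55 and 1.00 in Ctrl and 2.85, 2.67, 2.32 and 1.5 in KO. The late ICM of both knockouts thus stayed below every Ctrl late morula library at this peak. At *Fgfr1*, an FGF receptor, a peak 32825 bp upstream rose from morula to late morula in Ctrl (1.54, adjusted p = 0.0038 from limma) and in KO (1.60, adjusted p = 0.0044 from limma). The *Lrp2* member nearest a start (7528 bp upstream, 81.5% soft-masked) had 1.84, 1.16, 2.71 and 2.84 in *Pou5f1* Ctrl late ICM and 3.81, 3.09, 4.10 and 2.79 in KO, which overlap, and 0.77, 1.91, 2.26 and 1.04 in *Sox2* Ctrl and 3.57, 2.93, 3.70 and 3.62 in KO, which do not.

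The 2 members counted for the epiblast list are 62300 bp from *Pou5f1* and 80787 bp from *Fgf4*, and each is nearer to another coding gene, *H2-Q7* and *Ano1*. A member of the cleavage list lies between *Pramel6* and *Pramel7* (3399 bp from the latter).

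Of the 17 members at polarity and junction genes, 4 (23.5%) were called higher in Ctrl late morula, against 5.52% of all peaks near these genes and 3.65% of all peaks. In KO late morula 6 (35.3%) were, against 3.36% and 1.86%. The median Ctrl difference was 0.76, against 0.18 for all peaks near these genes. In KO they include peaks 5767 bp upstream of *Dsp* (desmoplakin, 1.73, adjusted p = 0.033 from limma) and 4267 bp upstream of a start of *Tead1* (1.48, adjusted p = 0.047 from limma). A peak 31567 bp from *Myh9*, a non-muscle myosin heavy chain, rose in Ctrl (1.38, adjusted p = 0.034 from limma) and KO (1.77, adjusted p = 0.0084 from limma). The calls in Ctrl and in KO each include the 2 neighbouring members near *Ocln*, which are not independent. These lie 24268 and 25758 bp from *Gtf2h2*, their nearest gene. The peaks named in this paragraph were picked after their values were seen.

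In all, 1083 different coding genes were nearest to the 1330 members, and 899 of them to a single member. Among the genes nearest to several members, *Magi1*, a scaffold of tight junctions, was nearest to 6, and *Gata3* and *Zbtb16* to 5 each. *Errfi1* (a feedback inhibitor of the EGF receptor), *Fchsd2*, *Gm973*, *Lrp2*, *Lrrfip1*, *Nav2*, *Ppp1r3b* (a glycogen-targeting phosphatase subunit) and *Shroom3* (an apical constriction protein) had 4 each. Members within 10 kb of another member numbered 223 (16.8%), so neighbouring peaks are not independent. At *Tjp1*, which encodes the tight junction protein ZO-1, the intron peak with 4 TEAD words rose from 4.91, 4.76 and 5.15 in Ctrl morula to 5.91, 5.89 and 6.20 in late morula (1.06, adjusted p = 0.048 from limma). In *Pou5f1* late ICM it had 4.23, 4.19, 4.38 and 4.34 in Ctrl and 5.90, 6.33, 5.78 and 5.84 in KO, and in *Sox2* late ICM 3.47, 4.53, 4.66 and 4.60 in Ctrl and 5.88, 5.35, 5.84 and 5.37 in KO. The *Pou5f1*-KO late ICM overlapped the Ctrl late morula there, and every *Sox2*-KO late ICM library lay below it.

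Peaks at the start sites of the listed genes give a view of the tissues that does not rest on the members. At 32 promoter peaks of 24 epiblast genes the library means were 3.45 to 3.92 in Ctrl morula and 4.61 to 4.81 in *Pou5f1* Ctrl late ICM, so Ctrl ICMs stood above morulae. This was not particular to epiblast genes, since from Ctrl morula to *Pou5f1* Ctrl late ICM the mean went from 3.56 to 4.24 at trophectoderm, from 3.0 to 3.77 at primitive endoderm and from 3.37 to 4.33 at polarity and junction promoters. It was also higher in the ICM at promoters of germ layer genes (1.75 and 2.97) and of later trophoblast and placenta (libraries of 2.92 to 3.21 and of 3.37 to 3.99), and was 3.38 and 3.41 at those of cleavage stage genes. In *Pou5f1*-KO late ICM the epiblast promoters had 3.82 to 4.13, with 0 of the 32 called higher and 11 lower, and in *Sox2*-KO late ICM 4.27 to 4.51, against 4.49 to 4.70 in its Ctrl, with 1 higher and 4 lower. At 40 promoter peaks of 29 trophectoderm genes the library means were 3.97 to 4.38 in *Pou5f1* Ctrl and 4.33 to 4.44 in KO late ICM, and 4.11 to 4.18 in *Sox2* Ctrl and 4.27 to 4.64 in KO. Of these 40, 4 were called higher and 2 lower in *Pou5f1*-KO late ICM, 3 higher and 0 lower in *Sox2*-KO, and 1 is a member. Of all peaks 8.19% were higher and 10.1% lower in *Pou5f1*-KO late ICM, and 2.71% and 4.88% in *Sox2*-KO. At 23 promoter peaks of 19 primitive endoderm genes Ctrl and KO late ICM had 3.77 ± 0.05 and 3.71 ± 0.06 in the *Pou5f1* line and 3.77 ± 0.10 and 3.82 ± 0.21 in the *Sox2* line (SD, n = 4). The part of any remaining outer cells, or of the lower epiblast promoters, in the gains was not tested. At the deleted *Sox2* locus, the peak just upstream of the gene had 2.35 to 3.28 in *Sox2* Ctrl and 0.49 to 1.05 in *Sox2*-KO late ICM, which did not overlap. A second peak at this locus had 2.42 to 3.5 in *Sox2* Ctrl and 1.14 to 2.91 in *Sox2*-KO late ICM, which overlap.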

How the data were processed

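ATAC-seq maps open chromatin by the sites where Tn5 transposase inserts. Per the methods of the study, the authors trimmed reads with SeqPurge, aligned them with Bowtie2 to mm10 (GRCm38), removed duplicates with Picard, kept uniquely mapped reads with a mapping quality of at least 30 outside chromosomes Y and M, and shifted them for the Tn5 offset. Peaks were called with MACS2 and blacklisted regions removed. Summits found in at least 2 replicates were merged into 200 bp windows, counted with BEDTools. The deposited log2 values are DESeq2 rlog values, made by the authors over all libraries. The rlog shrinks weak peaks toward their mean, so differences at low peaks are understated. With rlog values alone the depth of a library is unknown, and no counting interval is given. Median rlog per library was 2.35 to 2.63, and correlations between replicates were 0.762 to 0.908.

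The 44 libraries were grouped by their labels. A linear model with 1 mean per condition was fitted to all 152393 peaks with limma 3.58.1 (R 4.3.3; 32 residual degrees of freedom), with Benjamini-Hochberg adjustment over all peaks of a comparison, and calls were made at an adjusted p under 0.05, two-sided. The fit was tested on simulated data. Replicates were pools of embryos, and p-values measure the spread between these pools, which may be technical. Members, gene lists and motif words were chosen with earlier results of these data known. Genes were named by rule: those on the trophectoderm, primitive endoderm, epiblast and cleavage lists with a member within 100 kb, the 4 largest ICM gains, the 4 largest rises and falls between morula stages, members called between genotypes, genes nearest to the most members, and windows with the most GATA or TEAD words. Other genes named for their values are marked as such. Some items that these rules name are not reported here. Start sites came from GENCODE vM21, and sequence from RefSeq's GRCm38. Both strands of each 200 bp window were searched for the words. Python 3.11.15 was used for the remaining steps.

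Same-numbered KO and Ctrl libraries deviated together in late morula (correlations of their deviations 0.141, 0.192 and 0.109), taken as pairing. In morula these were 0.111, 0.048 and 0.153, above those of differently numbered libraries (−0.126 to 0.009). The reported morula fit used no block, and the fit with a block is given beside it. Between stages same-numbered libraries had −0.028 to 0.019, taken as no pairing. Alternatives were fits to the compared libraries alone, quantile normalization, a filter on low peaks, a replicate block, leaving out each library, other thresholds and other distances.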

Additional observations from a re-analysis of the deposited data

Results flagged for a closer look

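In 8 of 104 groups of 4 libraries whose values were looked at for the peaks printed per library, 1 library lay far from the other 3. Chance gives about 1 such group in 20. At *Bmp8b*, 1 *Sox2*-KO library was low in early ICM (3.40) and 1 in late ICM (4.05). At *Tjp1*, 1 *Sox2*-KO early ICM library (4.09) and 1 *Sox2* Ctrl late ICM library (3.47) stood apart. The *Pou5f1* Ctrl early ICM group had 1 such library at *Fgfr2* (4.98) and 1 at *Dab2* (0.72). A *Sox2* Ctrl early ICM library at *Klf6* (4.19) and a *Pou5f1* Ctrl late ICM library at *Slc9a2* (4.03) complete the list. These are values of the comparisons that chose the peaks, and their cause was not tested.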

How the results depend on the processing

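With other thresholds of the rule (1.2 and 0.5, or 0.7 and 0.2) the members numbered 254 or 3175, and 1162 to 1571 with 1 ICM library left out. Under the stricter rule the GATA share was 50.4%, the CDX share 16.5%, the OCT-SOX share 0, the trophectoderm share 4.33%, the epiblast share 0, and 75.6% were higher by any amount in Ctrl morula than in *Pou5f1* Ctrl late ICM (70.5% of the 1330 members and 45.9% of all peaks). Under the looser rule GATA was 40.5%, TEAD 35.1% and the epiblast share 0.693%, where 0.698% of all peaks lay near these genes, so the low share was lost. Within 20 kb the trophectoderm, primitive endoderm and epiblast shares were 0.827%, 0.301% and 0, within 50 kb the first and last were 1.43% and 0, and 8.87% of members lay within 1 kb of a start site. Members lower in KO morula numbered 0 when only the compared libraries were fitted, 5 after quantile normalization (0.376%, against 0.326% of all peaks), 7 with a replicate block (0.526%, against 0.506%) and 0 to 5 with 1 library left out (0 to 0.376%, against 0.00787% to 0.631%). In late morula those 3 fits called 3, 3 and 2 members higher (0.226%, 0.226% and 0.15%, against 0.242%, 0.173% and 0.23% of all peaks) and 4, 1 and 1 lower (0.301%, 0.0752% and 0.0752%, against 0.8%, 0.686% and 0.89%). From morula to late morula in Ctrl, 72 to 121 members rose and 5 to 9 fell with 1 library left out, and 28 fell after quantile normalization (2.11%, against 4.49% of all peaks). In KO, 30 to 80 rose (2.26% to 6.02%, against 0.373% to 1.48% of all peaks) and 0 to 4 fell (0 to 0.301%, against 0.308% to 1.38%), and 5 fell when only the compared libraries were fitted (0.376%, against 1.57%). The replicate block gave 141 rising in Ctrl and 110 in KO. The shares lower in KO morula after quantile normalization and with the block, and those higher in KO late morula, rest on 2 to 7 members. They were near the shares of all peaks, so nothing is read from which was larger. The cause of the changes was not tested. Depth is unknown here, and the rlog limits what can be seen at weak peaks.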
